A study of Mus musculus with 12 samples.

Results

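The genes described here are 43 genes of the cell division cycle, 17 of DNA replication and the G1 and S phases and 26 of mitosis and the G2 phase, given as a list of gene names by a rule that uses no signal value, though earlier results of these data were known when the list was made. A named probe was on the array for 40 of them, and 35 passed the filter on dim probes, which asked for a detection p-value under 0.05 on at least 3 of 12 arrays. All 17 replication genes and 18 of the 26 mitosis genes were among the 35, out of 11163 features of which 10280 were named genes. Mki67, Ccnb1 and Aurkb had no probe named for them, and Ccnb2, Bub1, Cks2, Cenpe and Hmmr were detected on 0 arrays, so their levels are not given here. Gmnn, close to the edge of the filter, was detected on 4 arrays, Ccna2 on 8 and Mcm7 on 11, and the other 32 genes on all 12.

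RNA came from the back skin of C57BL/6 mouse embryos at E18.5, shortly before birth. The first pair of groups was the library set titled Wild type I and the set titled Type I keratin KO, and the second pair was Wild type II and Type II keratin KO, with 3 arrays in each of the 4 groups. The labels name no allele beyond these titles, no agent and no treatment, and do not say whether arrays of a group came from separate embryos, so p-values here reflect only array-to-array spread, which may be technical. Whole back skin was used, so each value is a mean over epidermis, hair follicles, dermis and the tissue beneath, and fewer cells of a type cannot be told apart from less RNA per cell.

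Krt14, a type I keratin gene, was detected on 3 wild type I and 0 type I knockout arrays, and on all 3 arrays of both type II groups. Krt5, a type II keratin gene, was detected on 0 type II knockout arrays and on all 3 arrays of each other group. Between 13272 and 13693 of 25697 probes were detected on each array, and the raw median signal ran from 107 to 150. Correlations over all features were 0.962 to 0.991 within groups and 0.884 to 0.984 across groups. The number of arrays limits the precision, with a median standard error of 0.17 on the log2 scale for a difference between groups.

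Before a cell copies its DNA, Cdc6 and Cdt1 load the ring of Mcm2 to Mcm7 onto replication origins, and geminin, the product of Gmnn, holds Cdt1 in check afterwards. Cdc45 joins the ring when an origin fires, Pcna clamps the polymerases to the template, and Tyms, Rrm1 and Rrm2 supply nucleotides. Many of these genes are switched on by E2F factors once D and E cyclins have driven the cell through G1. Mitotic genes come on later, under B-Myb and Foxm1, and their products build the spindle, watch over chromosome attachment and split the cell. Dividing cells of late embryonic skin lie in the basal layer of the epidermis, in the growing hair follicles and in the dermis.

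The start sites of the replication and the mitosis genes carried short motifs in different shares, shown here because they describe both classes by sequence alone. Windows of 300 bases, from 250 before to 50 after the start, were taken from the RefSeq annotation of build GRCm38.p6, which gave 37 windows for 35 of the 43 genes, and none for Ccnd1, Ccne2, Mcm4, Gmnn, Ccna2, Aurkb, Tpx2 and Foxm1. They were searched on both strands for 3 motifs, namely TTCCCGC, a core of E2F sites, CCAAT, the box bound by NF-Y, and TTTGAA, the cell cycle homology region known from mitotic promoters. A window could count for several motifs, and a match is a run of letters and not a measured site. The E2F core stood in 6 of 14 replication windows (42.9%), in 0 of 23 mitosis windows and in 4.6% of all 32851 windows. Its 6 windows belonged to Cdc6, Cdt1, Mcm3, Rrm1 and both starts of Mcm7. The cell cycle homology region was in 16 of 23 mitosis windows (69.6%), in 2 of 14 replication windows (14.3%), those of Cdc45 and Mcm2, and in 17.9% of all windows. CCAAT was common in both classes, with 10 of 14 replication windows (71.4%) and 20 of 23 mitosis windows (87.0%) against 37.4% of all windows. All 16 mitosis windows with the homology region also held CCAAT, a pairing present in 6.95% of all windows.

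Printed below are the windows of the 2 replication and the 2 mitosis genes that had a window and the smallest adjusted p in either knockout, with any match to the 3 motifs in capitals. Cdc45 (chr16:18811923-18812222, minus strand) held 2 CCAAT boxes and 2 copies of the homology region, and Cdt1 (chr8:122567765-122568064, plus strand) held 1 E2F core. Kif23 (chr9:61946750-61947049, minus strand) held 1 CCAAT box and 1 homology region close to the start, and Nusap1 (chr2:119618048-119618347, plus strand) held none of the motifs in this window.
Cdc45: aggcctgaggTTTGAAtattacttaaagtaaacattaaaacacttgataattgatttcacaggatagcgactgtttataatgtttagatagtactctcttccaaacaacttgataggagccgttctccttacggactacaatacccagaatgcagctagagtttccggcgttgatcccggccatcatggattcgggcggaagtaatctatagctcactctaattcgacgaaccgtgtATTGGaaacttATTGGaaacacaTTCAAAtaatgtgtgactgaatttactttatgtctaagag
Cdt1: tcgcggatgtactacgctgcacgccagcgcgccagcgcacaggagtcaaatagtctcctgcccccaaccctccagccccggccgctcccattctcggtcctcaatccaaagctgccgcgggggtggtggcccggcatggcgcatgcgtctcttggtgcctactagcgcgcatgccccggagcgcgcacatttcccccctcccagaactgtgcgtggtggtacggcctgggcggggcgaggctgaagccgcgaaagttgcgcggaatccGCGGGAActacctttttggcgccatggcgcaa
Nusap1: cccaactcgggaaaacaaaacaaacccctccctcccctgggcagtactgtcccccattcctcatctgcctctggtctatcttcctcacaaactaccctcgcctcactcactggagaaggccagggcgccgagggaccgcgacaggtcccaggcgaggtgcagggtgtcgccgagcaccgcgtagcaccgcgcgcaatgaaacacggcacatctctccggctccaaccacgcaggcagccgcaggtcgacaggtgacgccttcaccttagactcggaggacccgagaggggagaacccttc
Kif23: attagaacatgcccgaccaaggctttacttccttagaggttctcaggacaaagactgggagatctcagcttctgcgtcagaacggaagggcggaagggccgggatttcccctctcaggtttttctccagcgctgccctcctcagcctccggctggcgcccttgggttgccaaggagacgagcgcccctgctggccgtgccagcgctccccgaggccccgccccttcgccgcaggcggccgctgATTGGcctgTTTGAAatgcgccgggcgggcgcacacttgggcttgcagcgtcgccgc

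In the type II keratin knockout most of the measured cycle genes were lower than in wild type II, in both classes, and 0 were higher. By limma with Benjamini-Hochberg adjustment over all 11163 features, at an adjusted p under 0.05, 22 of the 35 genes fell (62.9%), where 21.8% of all features fell, 15.6% rose and 37.5% did either. The 22 were 11 of 17 replication genes (64.7%), namely Ccnd1, Cdc6, Cdc45, Cdt1, Mcm2, Mcm3, Mcm4, Mcm5, Pcna, Tyms and Rrm2, and 11 of 18 mitosis genes (61.1%), namely Ccna2, Cdc20, Nusap1, Aurka, Bub1b, Birc5, Kif11, Kif23, Ttk, Foxm1 and Prc1. The median log2 change was -0.79 over the replication genes and -0.48 over the mitosis genes, beside -0.08 over all features. In 29 of the 35 genes the 3 knockout arrays all lay below the 3 wild type II arrays, as did 29.3% of all features, and 34 of 35 log2 changes were below 0. How many of all features had a change below 0 was not counted, and their median was below 0 too.

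In the type I keratin knockout fewer of the genes fell. Here 7 of 35 fell (20%) and 0 rose, where 15.6% of all features fell, 12.2% rose and 27.8% did either, so the members' share of falls was close to that of all features. The 7 were the replication genes Ccnd1, Cdc45 and Mcm7 (3 of 17, 17.6%) and the mitosis genes Ccna2, Cdc20, Nusap1 and Foxm1 (4 of 18, 22.2%). Median log2 changes were -0.33 over the replication and -0.28 over the mitosis genes, beside -0.11 over all features. Of the 35 log2 changes 32 were below 0, and in 15 genes all knockout arrays lay below all wild type I arrays, as in 28.5% of all features. The share of all features with a change below 0 was not counted here either. The count of 7 depended on single arrays. It was 3 without wild type I replicate 1 or replicate 2 and 2 without type I knockout replicate 1. It was 3 without replicate 2 or 3 of that knockout, 4 without wild type II replicate 1 and 11 without type II knockout replicate 2. Calls over all features, 3105 as reported, shifted as well. They were 2678 or 2252 without wild type I replicate 1 or 2, and 2108, 2188 or 2322 without type I knockout replicate 1, 2 or 3. Without wild type II replicate 1 they were 2776, and without type II knockout replicate 2 they were 3622. The shifts were thus not confined to these genes.

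Both knockouts shared 6 of these genes, Ccnd1, Cdc45, Ccna2, Cdc20, Nusap1 and Foxm1, which is 6 of 7 in type I and 6 of 22 in type II. Over all features 15.6% fell in type I and 21.8% in type II. How many of them fell in both was not counted, so the overlap is a list and not a result about these genes. Mcm7 passed the threshold in type I alone and 16 genes in type II alone. The 12 genes that passed in neither were Ccne1, Ccne2, Mcm6, Gmnn, Rrm1, Cdk1, Top2a, Plk1, Tpx2, Ube2c, Cenpa and Mad2l1.

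**Figure D1:**
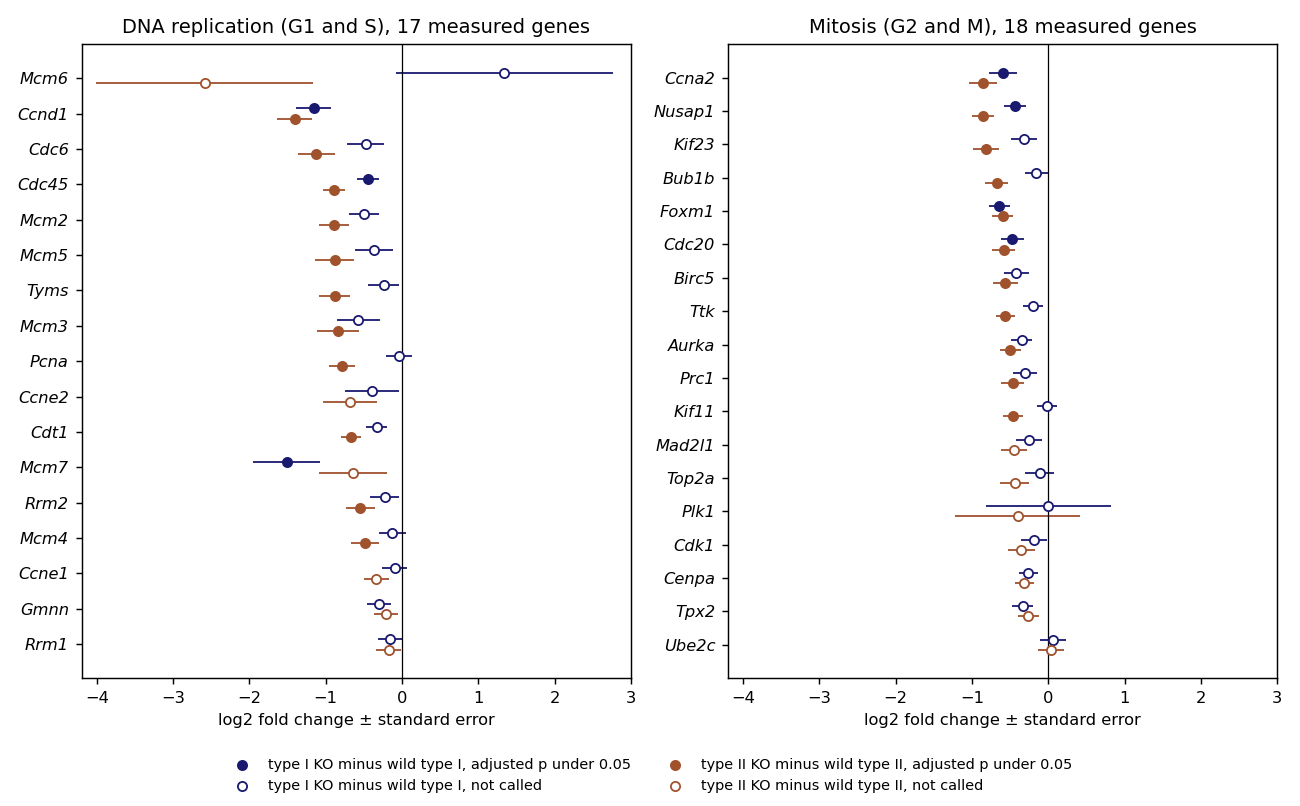
Log2 fold change with its standard error (horizontal axis) of each measured replication gene (left) and mitosis gene (right), dark blue for type I keratin KO minus wild type I and brown for type II keratin KO minus wild type II, 3 arrays per group; filled points have an adjusted p under 0.05 and genes are ordered by the type II value. All 29 filled points (7 blue, 22 brown) lie left of 0, and Mcm6 and Plk1 have the widest bars.

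Ccnd1, which encodes cyclin D1, the partner of Cdk4 and Cdk6 in G1, had the lowest type II value among the genes that passed. On the log2 scale of normalised signal, the wild type I arrays read 11.83, 11.74 and 12.10 and the type I knockout arrays 10.82, 10.65 and 10.72. Wild type II read 11.83, 12.17 and 12.10 and the type II knockout 10.70, 10.03 and 11.15. All 6 knockout arrays lay below all 6 wild-type arrays. The fall was 2.23-fold in type I (log2 -1.16 ± 0.23 SE, adjusted p = 0.00367) and 2.64-fold in type II (log2 -1.40 ± 0.23, adjusted p = 0.000685), and both calls were kept under every alternative processing and without each array in turn. The E cyclins, which act with Cdk2 at the start of S phase, did not pass in either knockout: Ccne1 was at -0.10 and -0.34 and Ccne2 by -0.39 and -0.68 in type I and type II. Ccne2 passed in type II with the replicate block (adjusted p = 0.0376) and with the title number block (0.0237).

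Origin licensing was next. Cdc6 signals were 7.87, 8.01 and 7.20 in wild type I against 7.24, 7.40 and 7.01 in its knockout, and 8.44, 8.19 and 8.19 in wild type II against 7.26, 6.66 and 7.54. The type I groups overlapped and the type II groups did not. Cdc6 fell 2.18-fold in type II (log2 -1.12 ± 0.24, adjusted p = 0.00371) and its type I value was -0.47 ± 0.24 (adjusted p = 0.166). Its loading partner Cdt1 read 9.56, 9.54 and 9.31 in wild type I, 9.22, 9.13 and 9.07 in the type I knockout, 9.57, 9.60 and 9.53 in wild type II and 9.16, 8.68 and 8.86 in the type II knockout. No knockout array of Cdt1 reached its own wild type in either pair. The type II fall passed (log2 -0.67 ± 0.14, adjusted p = 0.00266) and the type I value of -0.33 ± 0.14 did not (adjusted p = 0.0900). Gmnn was too dim to compare: it was detected on 2 arrays of each wild type and on 0 knockout arrays. Its knockout and wild-type arrays overlapped in both pairs, and no fold is given.

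Cdc45, the helicase partner that marks an origin firing, had the smallest type II adjusted p of all the listed genes. Wild type I read 7.29, 7.45 and 7.01 and its knockout 6.63, 6.92 and 6.87, while wild type II read 7.85, 7.63 and 7.81 and its knockout 7.0, 6.78 and 6.85. Both pairs were separate, though wild type II also lay above wild type I on every array. The fall was 1.36-fold in type I (log2 -0.44 ± 0.14, adjusted p = 0.0375) and 1.85-fold in type II (log2 -0.89 ± 0.14, adjusted p = 0.000605). The type I call was lost without wild type I replicate 1 (adjusted p = 0.0887) or 2 (0.138), without type I knockout replicate 1 (0.139), 2 (0.0546) or 3 (0.0643), and without wild type II replicate 1 (0.0510) or 3 (0.0535), as well as with median scaling (0.0627) and with its own wild type only in the fit (0.0664).

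The Mcm genes encode the 6 subunits of the helicase ring. Mcm2 read 8.44, 8.59 and 8.42 in wild type I, 7.89, 8.01 and 8.05 in its knockout, 8.88, 9.01 and 9.07 in wild type II and 8.24, 7.56 and 8.51 in that knockout. Knockout arrays were lower than their wild type without overlap in both pairs. The type II change was -0.89 ± 0.20 (adjusted p = 0.00428) and the type I value -0.50 ± 0.20 (adjusted p = 0.0776). Mcm3, Mcm4 and Mcm5 also fell in type II, by 0.84, 0.49 and 0.88 on the log2 scale, and were at -0.57, -0.13 and -0.37 in type I without passing. Mcm5 lost its call without wild type II replicate 1 (adjusted p = 0.0556), and Mcm3 without wild type II replicate 1 (0.0675) or 3 (0.110) or type II knockout replicate 2 (0.111). Both lost it with their own wild type only in the fit (0.0586 and 0.0691), and Mcm3 also without the filter on dim probes (0.0638). In type I, Mcm3 passed with the replicate block (0.0382), the title number block (0.0252) and array weights (0.0305), and Mcm2 with array weights (0.00501) and its own wild type only (0.0185). The call on Mcm4 was the least firm: it was lost without wild type I replicate 1 (adjusted p = 0.0539), without any type I knockout array (0.0526 to 0.0640) or wild type II array (0.0858 to 0.133), without type II knockout replicate 1 (0.0752) or 2 (0.152), and without the filter on dim probes (0.0670).

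Mcm7 was the 1 Mcm gene that passed in type I. Its values were 6.27, 7.0 and 8.39 in wild type I, 5.50, 5.55 and 6.08 in the type I knockout, 6.17, 5.99 and 6.47 in wild type II and 6.11, 4.93 and 5.65 in the type II knockout. One wild type I array, at 8.39, stood well above all others, and the type II groups overlapped. The type I change was -1.51 ± 0.44 (adjusted p = 0.0254) and the type II value -0.64 ± 0.44 (adjusted p = 0.280). Without the high array, wild type I replicate 3, the type I value was -0.93 (adjusted p = 0.0694), and the call was also lost without type I knockout replicate 1 (0.0799) or 2 (0.0740) and without the filter on dim probes (0.0577).

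Mcm6 could be read from 4 passing probes, which differed in how they behaved, so it was singled out after its values had been seen. The brightest probe, which represents the gene in the counts above, read 10.43, 11.59 and 5.63 in wild type I and 10.79, 10.84 and 10.04 in its knockout, then 10.58, 10.40 and 11.45 in wild type II and 5.11, 9.23 and 10.34 in that knockout. A single array in each of 2 groups was far below the others, and neither change passed, at 1.34 ± 1.42 in type I (adjusted p = 0.518) and -2.59 ± 1.42 in type II (adjusted p = 0.175). The second probe had no such arrays: it read 9.89, 9.81 and 9.52, then 9.40, 9.48 and 9.53, then 10.17, 10.05 and 10.30, then 8.94, 8.77 and 9.35, in the same order of groups. Fitted on its own, it gave -1.15 ± 0.16 in type II (adjusted p = 0.000224) and -0.27 ± 0.16 in type I (adjusted p = 0.235). The third probe gave -0.98 ± 0.24 in type II (adjusted p = 0.00720) and -0.23 in type I, and the fourth, detected on 3 arrays, -0.41 and 0.14 without passing. Read through its second probe, Mcm6 brought the type II count to 23 of 35.

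**Figure D2:**
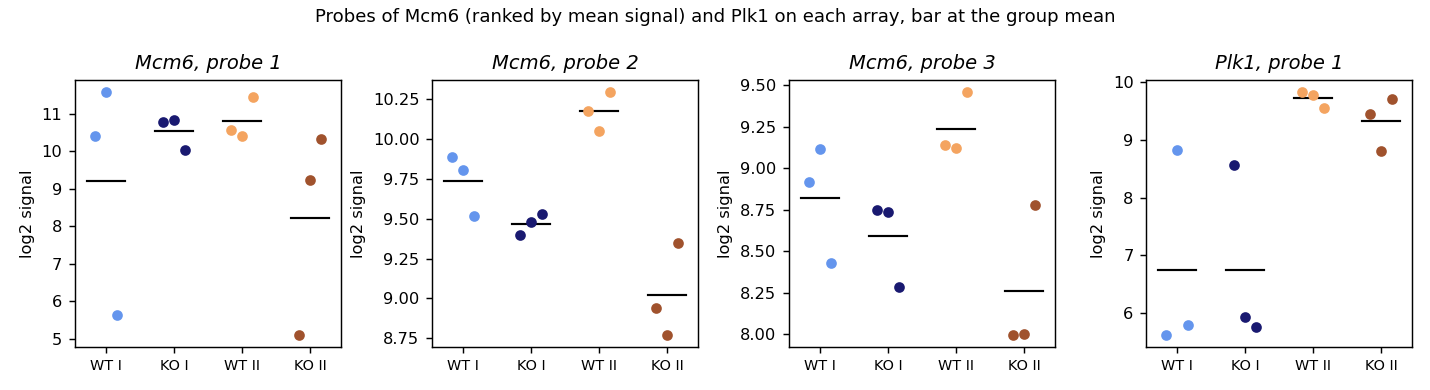
Normalised log2 signal (vertical axis, a separate range in each panel) on each array for the 3 brightest probes of Mcm6 and for Plk1, with the group mean as a bar, 3 arrays per group. Single arrays at 5.63 and 5.11 set the group means of the first Mcm6 probe, the second probe has no such array, and Plk1 sits near 6 or near 9 within both type I groups.

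Pcna, the sliding clamp, had the smallest p of the listed genes for a difference between the knockouts, given further on. Wild type I read 8.31, 8.27 and 7.85 and the type I knockout 8.07, 8.15 and 8.10, which overlapped. Wild type II read 7.93, 7.87 and 7.92 and the type II knockout 6.86, 7.0 and 7.50, which did not. Pcna fell 1.72-fold in type II (log2 -0.79 ± 0.17, adjusted p = 0.00387), and its type I value was -0.04 ± 0.17 (adjusted p = 0.897). Of the nucleotide suppliers, Tyms (thymidylate synthase) fell in type II by 0.88 on the log2 scale (adjusted p = 0.00458) and Rrm2 (the regulated subunit of ribonucleotide reductase) by 0.55 (adjusted p = 0.0439), while Rrm1, its partner subunit, was at -0.17 (adjusted p = 0.447). In type I all 3 were between -0.24 and -0.15 and none passed. The Rrm2 call depended on single arrays: leaving out any type I knockout array gave an adjusted p of 0.0557 to 0.0599, any wild type II array 0.0696 to 0.129, type II knockout replicate 1 0.0646 and replicate 2 0.142, and wild type I replicate 1 or 2 0.0545 or 0.0553. It was lost as well without the filter on dim probes (0.0676), with its own wild type only in the fit (0.114) and with the mean over both probes (0.143).

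Among the mitosis genes, Foxm1, the transcription factor that drives many genes of the class, had the smallest adjusted p in type I. It read 8.07, 7.80 and 7.79 in wild type I against 7.28, 7.21 and 7.23 in the knockout, and 7.86, 7.99 and 7.88 in wild type II against 7.28, 7.06 and 7.58. All knockout arrays were below all wild-type arrays. The fall was 1.56-fold in type I (log2 -0.64 ± 0.14, adjusted p = 0.00648) and 1.51-fold in type II (log2 -0.60 ± 0.14, adjusted p = 0.00609), and both calls were kept under every alternative.

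Cyclin A2, which acts in S phase and up to mitosis, came from a dim probe of Ccna2 detected on all wild-type arrays and on 1 array of each knockout. Its values were 5.56, 5.65 and 5.51 in wild type I, 4.98, 5.23 and 4.72 in the type I knockout, 5.67, 5.75 and 5.39 in wild type II and 4.72, 4.43 and 5.09 in the type II knockout. Knockout and wild type did not overlap in either pair. Ccna2 changed by -0.59 ± 0.18 in type I (adjusted p = 0.0303) and by -0.86 ± 0.18 in type II (adjusted p = 0.00325), but 2 of 3 arrays in each knockout lay below the lowest signal measured above background. With those arrays set to that floor, the wild-type mean was 1.40-fold higher in type I and 1.49-fold in type II. Ccna2 passed the filter mostly through wild-type arrays and Gmnn only through them. Without both genes the counts of genes that fell were 6 and 21 of 33. The type I call was lost without any 1 wild type I array (adjusted p = 0.0523 to 0.0867) and without type I knockout replicate 1 (0.0757) or 3 (0.110), without background correction (0.0860), in the authors' values (0.0637) and with the replicate block (0.05003). Cdk1, the mitotic kinase itself, did not pass. It read 9.38, 9.33 and 8.89 in wild type I, 9.10, 9.10 and 8.84 in its knockout, 9.57, 9.49 and 9.54 in wild type II and 9.27, 8.84 and 9.43 in that knockout. The type II arrays were separate by little, at -0.35 ± 0.17 (adjusted p = 0.134), and the type I arrays overlapped, at -0.19 ± 0.17 (adjusted p = 0.461).

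Cdc20 activates the complex that starts anaphase, and Nusap1 binds spindle microtubules. Cdc20 read 10.26, 10.33 and 10.14 in wild type I and 9.69, 9.76 and 9.86 in its knockout, and 10.54, 10.52 and 10.23 in wild type II and 9.97, 9.52 and 10.05 in that knockout. Nusap1 read 10.53, 10.69 and 10.59 against 10.05, 10.26 and 10.20 in the type I pair, and 10.80, 10.62 and 10.72 against 9.56, 9.90 and 10.12 in the type II pair. Neither gene had an overlap between knockout and wild type. Cdc20 changed by -0.47 ± 0.15 in type I (adjusted p = 0.0381) and -0.58 ± 0.15 in type II (adjusted p = 0.0107), and Nusap1 by -0.43 ± 0.14 (adjusted p = 0.0428) and -0.85 ± 0.14 (adjusted p = 0.000843). Both type I calls were lost under several settings. Cdc20 lost its own without wild type I replicate 1 (0.0830) or 2 (0.111), any type I knockout array (0.0593 to 0.114) and wild type II replicate 1 (0.0502) or 2 (0.0508), and Nusap1 without any 1 array of wild type I (0.0627 to 0.124), type I knockout (0.0678 to 0.140) or wild type II (0.0566 to 0.0604). Both were also lost with median scaling (0.0827 and 0.0560), the replicate block (0.0676 and 0.0594) and the mean over passing probes (0.202 and 0.121), which ended the type II call of Cdc20 too (log2 -0.36, adjusted p = 0.117).

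Kif23, a kinesin of the midzone where the cell is split, read 8.77, 8.48 and 8.09 in wild type I, 8.22, 8.21 and 7.95 in the type I knockout, 8.87, 8.81 and 8.60 in wild type II and 7.88, 7.81 and 8.12 in the type II knockout. The type I groups overlapped and the type II groups stood apart. Kif23 fell 1.76-fold in type II (log2 -0.82 ± 0.17, adjusted p = 0.00318), with a type I value of -0.32 ± 0.17 (adjusted p = 0.185). Its midzone partner Prc1 fell in type II by 0.47 on the log2 scale (adjusted p = 0.0307). That call was lost without wild type II replicate 1 (0.0913) or 2 (0.0848) and without type II knockout replicate 1 (0.0749) or 2 (0.0898).

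Further members act on the spindle and its checkpoint. Aurka, a kinase of the spindle poles, fell in type II by 0.50 on the log2 scale, and Kif11, the motor that pushes the poles apart, by 0.46 (adjusted p = 0.0133 and 0.0139). Of the checkpoint genes, Bub1b fell by 0.68 and Ttk by 0.56 (adjusted p = 0.00419 and 0.00534), and Mad2l1, at -0.45, did not pass (adjusted p = 0.0510) as reported, and passed under 5 other settings of the processing and without wild type I replicate 2 or 3 or type II knockout replicate 3. Birc5, a subunit of the chromosomal passenger complex, fell by 0.57 (adjusted p = 0.0169). In type I none of these 6 passed, with values from -0.42 for Birc5 to -0.02 for Kif11. Kif11 lost its type II call without wild type II replicate 2 (0.0547), and Birc5 without wild type II replicate 1 (0.0590) or type II knockout replicate 2 (0.0531), with its own wild type only in the fit (0.0594) and with the mean over its passing probes (log2 -0.27, adjusted p = 0.213).

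Top2a, the topoisomerase that untangles sister chromatids, read 9.93, 9.61 and 9.08 in wild type I, 9.60, 9.46 and 9.22 in its knockout, 9.97, 9.96 and 10.11 in wild type II and 9.54, 9.46 and 9.72 in that knockout. The type I arrays overlapped, the type II arrays did not, and the values of -0.11 ± 0.19 and -0.44 ± 0.19 both missed the threshold (adjusted p = 0.693 and 0.0902). The type II value passed with median scaling (0.0361), with its own wild type only (0.0379), with the replicate block (0.0299) and with the title number block (0.0277). Cenpa, the histone of the centromere, and Tpx2, a spindle assembly factor, were at -0.26 and -0.34 in type I and at -0.31 and -0.26 in type II, with knockout arrays below wild type in both pairs and no call. Ube2c, the ubiquitin-conjugating enzyme of the anaphase complex, stood at 0.06 and 0.03 and was the 1 member above 0 in type II.

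Plk1, a kinase of mitotic entry, was singled out after its values had been seen because it split within groups. It read 5.63, 8.82 and 5.80 in wild type I and 8.56, 5.94 and 5.76 in the type I knockout, against 9.83, 9.78 and 9.55 in wild type II and 9.44, 8.81 and 9.70 in the type II knockout. Values near 6 occurred in both type I groups and in neither type II group. Neither change passed, at 0.00 ± 0.82 in type I (adjusted p = 1.00) and -0.40 ± 0.82 in type II (adjusted p = 0.737). Without Mcm6 and Plk1 the counts were still 7 and 22, now of 33 genes.

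**Figure D3:**
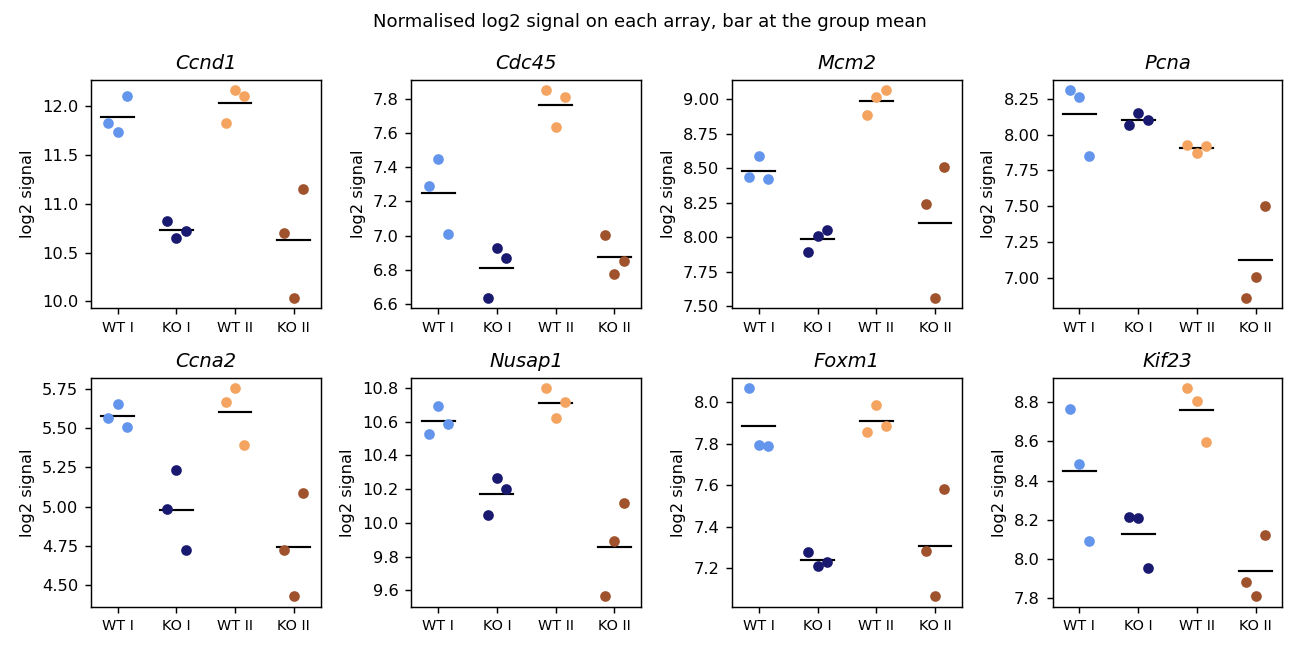
Normalised log2 signal (vertical axis, a separate range in each panel) of 4 replication genes (top) and 4 mitosis genes (bottom) on each of the 12 arrays, with a bar at the group mean; WT and KO with I or II are the title groups. Type II knockout points lie below wild type II in all 8 panels, and type I knockout points overlap wild type I for Pcna and Kif23.

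Of the 35 genes, 27 were read by 1 passing probe and 8 by several, which gave a check inside the array. Each passing probe was fitted on its own and adjusted over all 14744 passing probes, of which 13.5% were called lower in type I and 19.9% in type II. Ccnd1 was called lower by 2 of its 3 probes in both knockouts, and Foxm1 by 1 of 2 in type I and both in type II. Tyms was called by 3 of 5 and Mcm6 by 2 of 4 probes in type II, and by none in type I. Cdc20 was called by 1 of 4 probes in type I and 2 of 4 in type II, with the dimmest probe at 0.05 and 0.04. Nusap1 was called by 1 of 2 probes in each knockout, and Birc5 by 1 of 3 and Rrm2 by 1 of 2 in type II. No probe of these 8 genes was called higher.

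Array by array, the median of each class after subtracting its own wild-type mean put every knockout array below 0. For the replication genes it was -0.26, -0.24 and -0.40 in type I knockout replicates 1, 2 and 3, and -0.70, -1.05 and -0.41 in the type II knockout. For the mitosis genes it was -0.25, -0.25 and -0.37 in type I and -0.49, -0.74 and -0.33 in type II. Wild type I was spread, with replicate 3 at -0.26 and -0.17 and the other 2 arrays at 0.08 to 0.20, so its lowest array lay within the range of the type I knockout arrays for the replication genes. Wild type II arrays lay between -0.07 and 0.06 in both classes. The type II median of the replication genes was -0.53 without knockout replicate 2, its lowest array, and the type I median of the mitosis genes was -0.43 without wild type I replicate 3.

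**Figure D4:**
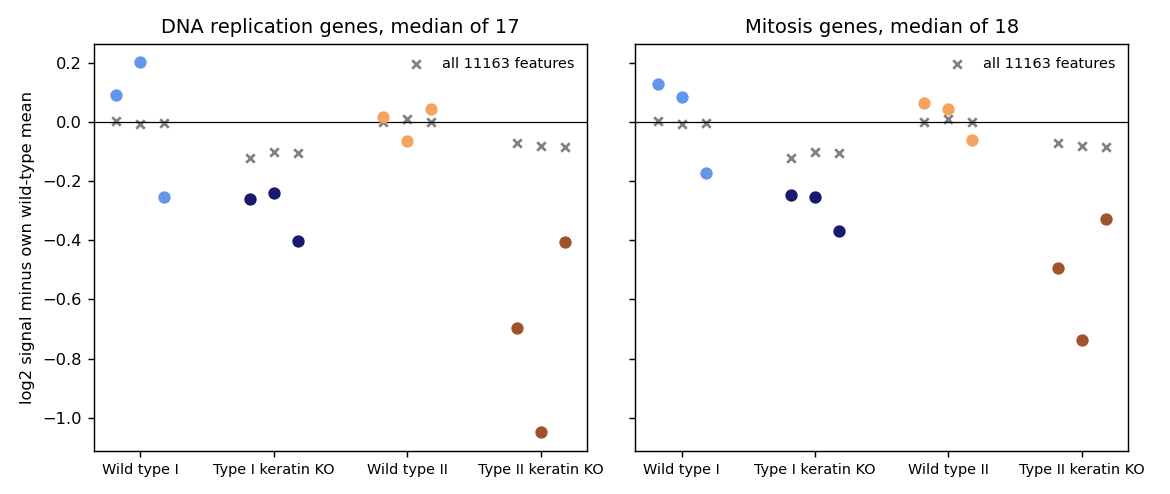
Median over the 17 replication genes (left) and 18 mitosis genes (right) of log2 signal minus the gene's own wild-type mean (vertical axis) on each of the 12 arrays, with the same median over all 11163 features as grey crosses. Type II knockout arrays sit at -0.41 or lower (left) and -0.33 or lower (right), and wild type I replicate 3, at -0.26 and -0.17, sits apart from the other wild-type arrays.

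Each array title begins with a number that knockout and wild-type arrays share and whose meaning the labels do not give. Within each such number the median difference, knockout minus wild type, was below 0 for both classes. For the replication genes it was -0.38 within number 2705 (2 arrays against 2) and -0.19 within 2602 (1 against 1) in type I, where 17 and 11 of 17 genes were below 0. In type II, with 1 array against 1, it was -0.65 within 2794, -1.02 within 2818 and -0.56 within 2819, with 17, 17 and 15 genes below 0. For the mitosis genes it was -0.38 and -0.12 in type I, with 17 and 14 of 18 below 0, and -0.57, -0.69 and -0.24 in type II, with 17, 18 and 16 below 0. Over all features these medians ran from -0.12 to -0.06, and 54.9% to 61.2% of all features were below 0. Within 2602 it was 56.5% of all features, to which the 11 of 17 replication genes were near.

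Whether the type II change was larger than the type I change was tested in the same fit. The log2 change was more negative in type II for 31 of 35 genes, by a median of 0.34 for the replication genes (-0.34) and 0.18 for the mitosis genes (-0.18). Over all features the median difference was -0.0006, and the share more negative in type II was not counted. The difference also holds the gap between the controls. Wild type II minus wild type I was below 0 in 7 of 35 genes, with a median of 0.40 over the replication and 0.14 over the mitosis genes. It is therefore no comparison of knockout levels. Mean knockout signals in type I and type II were 6.81 and 6.88 for Cdc45, and 8.11 and 7.12 for Pcna. Yet 0 of the 35 differences passed in limma after adjustment, where 3.06% of all features did, and 5 had an unadjusted p under 0.05, namely Cdc45, Pcna, Tyms, Bub1b and Kif11. How many of all features had an unadjusted p that low was not counted. The smallest adjusted p belonged to Pcna (-0.75 ± 0.24, adjusted p = 0.135), which passed without type II knockout replicate 3 (-0.94, adjusted p = 0.0227). The 16 genes called in type II alone are therefore not shown to differ between the knockouts.

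The wild types were compared to show how far apart the controls stood. The median log2 difference, wild type II minus wild type I, was 0.40 over the replication genes and 0.14 over the mitosis genes, beside 0.01 over all features. In limma 0 of 35 passed, where 1.53% of all features did, and 13 had an unadjusted p under 0.05, among them Mcm2, Mcm3, Mcm4, Mcm5, Cdc6 and Cdc45. The share of all features under that unadjusted threshold was not counted, so the 13 cannot be judged against it. The smallest adjusted p was for Kif11 (0.48 ± 0.13, adjusted p = 0.0880). Without wild type I replicate 2, Plk1 passed (4.00, adjusted p = 0.0314).

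Further genes of the cycle were taken from lists by role. Of 35 other measured replication genes 25 fell and 0 rose in type II (71.4%, beside 21.8% of all features), and 12 fell and 0 rose in type I (34.3%, beside 15.6%), with median log2 changes of -0.57 and -0.37. The calls with the smallest adjusted p in type II were Dut, which clears dUTP (-1.46 ± 0.18), Clspn, a fork checkpoint mediator (-0.96), Chaf1b, a histone chaperone of the fork (-1.20), and Orc6, of the origin recognition complex (-0.94). In type I they were Rfc2 of the clamp loader (-0.53), Uhrf1, which maintains DNA methylation (-0.69), Pold1, a polymerase subunit (-0.90), and Clspn (-0.60). Of 29 other mitosis genes 17 fell in type II (58.6%) and 5 in type I (17.2%, close to the share of all features), with 0 higher and medians of -0.55 and -0.30. The kinase Melk (-0.86), separase, encoded by Espl1 (-0.97), Ndc80 of the kinetochore (-0.90) and the kinase Pbk (-0.77) led in type II, and Espl1 (-0.58), Kif15 (-0.62), Pbk (-0.50) and Kif22 (-0.60) in type I.

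Of 12 G1 cyclin, kinase, E2F and Myc genes 2 fell in type I (16.7%), and 3 fell (25%) and 1 rose in type II. These shares were close to the 15.6% and 21.8% of all features that fell. E2f1 read 9.86, 10.02 and 10.34 in wild type I against 8.97, 9.08 and 9.19, and 9.88, 9.83 and 9.93 in wild type II against 9.10, 8.32 and 8.93. No knockout array reached its wild type, and E2f1 changed by -0.99 ± 0.19 in type I (adjusted p = 0.00304) and -1.10 ± 0.19 in type II (adjusted p = 0.000973). E2f6 also fell in both (-0.55 and -0.85), E2f2 fell in type II (-0.90) and E2f3 rose in type II (0.66).

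Cell cycle inhibitors and p53 targets were called in both directions, with 3 of 18 lower (16.7%) and 3 higher in type I and 4 lower (22.2%) and 6 higher in type II. The shares called lower were close to the 15.6% and 21.8% of all features. Of all features 12.2% rose in type I and 15.6% in type II, and the 6 of 18 higher in type II were a larger share. Cdkn2b, which encodes the Cdk4 and Cdk6 inhibitor p15, read 6.15, 6.01 and 7.19 in wild type I against 8.96, 9.39 and 9.10, and 7.97, 7.88 and 7.83 in wild type II against 10.42, 10.31 and 9.47. All knockout arrays were far above their own wild type, by 2.70 ± 0.30 in type I (adjusted p = 7.33e-05) and 2.17 ± 0.30 in type II (adjusted p = 0.000256). The controls differed as well, with Cdkn2b higher in wild type II than in wild type I by 1.44 ± 0.30 (limma adjusted p = 0.0426). Cdkn1a, which encodes the inhibitor p21, read 10.39, 10.23 and 10.61 against 10.77, 10.69 and 10.94 in the type I pair, and 10.34, 10.37 and 10.45 against 11.97, 11.78 and 11.43 in the type II pair. Both pairs were separate, and the rise passed in type II (1.34 ± 0.15, adjusted p = 6.72e-05) and not in type I (0.39, adjusted p = 0.0788). The difference between the changes itself passed for Cdkn1a (adjusted p = 0.0370) and for Mdm2, the p53 antagonist and target (adjusted p = 0.0338), which was at -0.06 in type I and 0.96 in type II. Other calls passed in both knockouts, given here for type I and then type II: the inhibitors Cdkn2c (-0.79 and -1.67) and Cdkn1c (-0.77 and -0.97), Ccng1 (-0.58 and -0.70), Sesn2 (0.85 and 0.61) and Gadd45b (0.46 and 0.98).

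**Figure D5:**
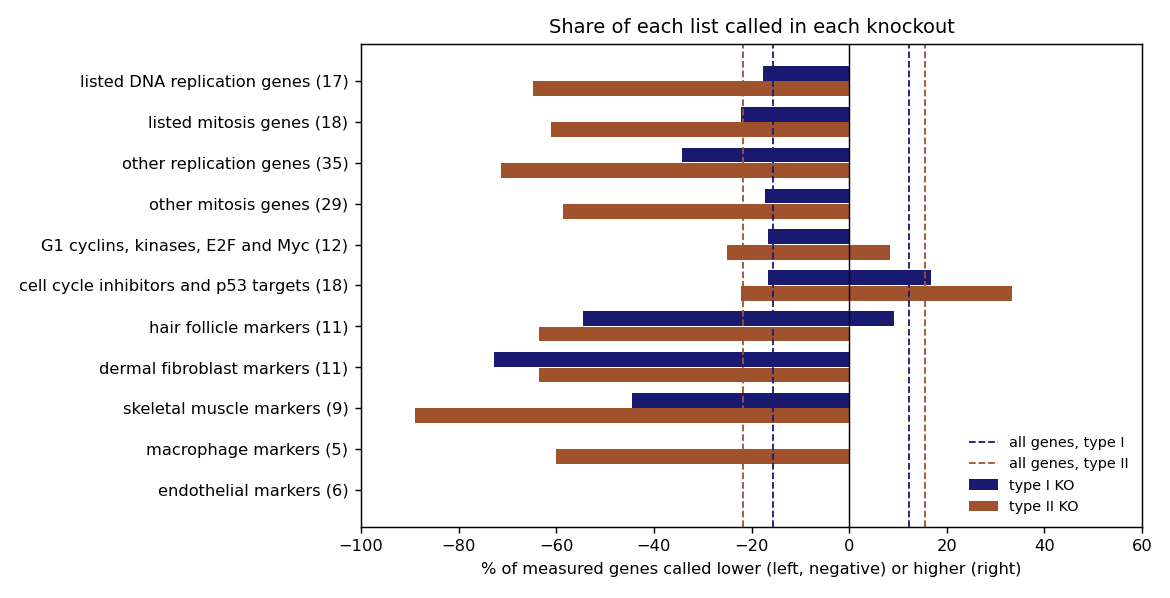
Percentage of the measured genes of each list (number in brackets) called lower (bars to the left, negative values) or higher (to the right) in the type I (dark blue) and type II (brown) knockout, with dashed lines at the share of all features. In type II the 4 replication and mitosis lists reach from 58.6% to 71.4% lower, and inhibitors and p53 targets extend both ways.

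Markers of several cell types of the tissue fell in the same arrays, and those of others did not. Their counts are to be read beside the 15.6% of all features that fell and 12.2% that rose in type I, and the 21.8% and 15.6% in type II. Of 11 measured hair follicle markers 6 fell and 1 rose in type I, and 7 fell and 0 rose in type II. Their summed linear signal ran from 1887 to 2824 in wild type I, from 1391 to 1514 in its knockout, from 2669 to 3852 in wild type II and from 1111 to 1117 in that knockout. Foxn1 was not detected in either wild type. Of 11 dermal fibroblast markers 8 fell in type I and 7 in type II, with sums of 67918 to 72402, 44882 to 52939, 66560 to 69191 and 39663 to 49214 in the same order of groups, and Postn not detected in the type II knockout. Skeletal muscle markers fell in 4 of 9 and 8 of 9 cases, with sums of 78033 to 90660, 60925 to 64920, 76061 to 86438 and 28014 to 55261, and all 9 were detected in each group. Adipocyte markers fell in 5 of 5 in type I and 4 of 5 in type II, and macrophage markers in 0 of 5 and 3 of 5. The part of these markers in the result on the cycle genes was not tested.

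Basal keratinocytes form the dividing layer of the epidermis. Of 10 measured markers 2 fell and 1 rose in type I, and 2 fell and 4 rose in type II, with median log2 changes of 0.15 and 0.41. Of all features 15.6% fell and 12.2% rose in type I, and 21.8% fell and 15.6% rose in type II. Of 4 integrin genes on the list, Itgb4, Itga6 and Itga3 rose in type II by 1.60, 0.99 and 0.66 on the log2 scale, and Itgb1 was at -0.24 (adjusted p = 0.193). The other rise in type II was Col17a1 (0.55), and the falls were Krt5 (-6.10) and Krt15 (-2.24, limma adjusted p = 2.25e-05). Krt14 and Krt15 were not detected in the type I knockout and Krt5 not in the type II knockout, where Krt15 was still detected. The summed signal of the list, which contains these keratins, was 30209 to 32585 in wild type I, 10765 to 13703 in its knockout, 33099 to 38511 in wild type II and 38127 to 38488 in that knockout. Suprabasal markers split, with 1 lower and 5 higher of 8 in type I and 3 lower and 1 higher in type II. The 1 lower in type I was the type I keratin gene Krt10 (-9.82). The 3 lower in type II were Krt1 (-6.47), a type II keratin gene not detected in that knockout, Lor (-4.84) and Krt10 (-1.54). The median log2 change of 6 endothelial markers was -0.34 in type I and 0.07 in type II, and that of 3 erythroid markers -0.59 and 0.39.

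Across the 12 arrays, after group means were removed, the genes outside the lists whose signal was most like the mean of the mitosis genes were Ska3 (r = 0.962), a kinetochore gene, Champ1 (0.945), Cdk5 (0.942), Nr2f1 (0.938) and Nedd1 (0.936). These 12 points share their arrays and normalization, so the values are a description. The mitosis mean was not scaled by gene. Plk1, with standard deviations of 1.80 in wild type I and 1.57 in its knockout, could weigh more on it than the other mitosis genes. Of the 5, Nedd1, which brings the gamma-tubulin ring to the spindle, fell in both knockouts (-0.43 and -0.56), and Nr2f1 fell in type II (-0.53, adjusted p = 0.0498).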

How the data were processed

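Total RNA was labelled with biotin and hybridised to Illumina bead arrays, 1 per sample, per the labels' protocols. Per the file headers, a non-normalized probe intensity is deposited with a detection p-value for each array. The authors' processed value table was on a linear scale with medians of 16.3 to 16.4 and 25.2 to 25.3% of values below 0; how it was made is not given in the sources used here. Of 25697 probes, 23978 carried 1 gene symbol and 1719 none.

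Intensities were corrected with normexp, using negative control values inferred from the detection p-values, with an offset of 16, quantile normalised and taken to log2 (limma 3.58.1 in R 4.3.3). Probes had to be detected at p under 0.05 on at least 3 of 12 arrays. A gene was represented by its passing probe with the highest mean. One limma model with 4 groups and 8 residual degrees of freedom gave all contrasts, with Benjamini-Hochberg adjustment over 11163 features. "Passed", "called", "rose" and "fell" mean an adjusted p under 0.05. Only the limma fit and adjustment, for type I changes, were tested on simulated data, drawn as gene values after normalisation, filter and probe choice.

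Members and lists were chosen with earlier results of these data known. Array values are given for Top2a, Pcna, Mcm2, Ccnd1, Cdk1 and Foxm1 and for up to 8 called members per knockout with the smallest adjusted p, and context lists name up to 4 called genes each by the same order. Mcm6, Plk1 and Mdm2, and array values of E2f1, Cdkn2b and Cdkn1a, were added after their values had been seen. Alternatives changed the background correction, the normalisation, the source of values, the filter, the probe rule, the samples in the fit, the block, the array weights and the arrays left out. Choices added after the data had been seen were the fit of each probe, Mcm6 by its second probe, and the counts without Mcm6 and Plk1 or without Ccna2 and Gmnn. Replicate numbers were not used to pair samples, since deviations of same-numbered arrays correlated at 0.17, 0.06 and 0.36 in type I and 0.08, 0.03 and 0.14 in type II.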

Additional observations from a re-analysis of the deposited data

How the results depend on the processing

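Of the 29 member changes that passed, 15 passed under all 23 alternatives, Ccna2 in type II passed under its 22 (the stricter filter left it out), and 0 changed direction under any. Not every alternative could move each change. Mcm6 by its second probe left the values of all 29 as they were. Leaving out an array of the other pair altered only the shared spread and the adjustment. The number of members called was 7 in type I, 4 with median scaling, 19 with array weights and 2 to 11 when single arrays were left out. Over all features the type I counts were 3105, 2738, 4657 and 2108 to 3622 in the same order. Members called in type II were 22, and 16 to 25 when single arrays were left out, beside 4183 and 3188 to 4443 over all features. For the difference between the changes the number of members called was 0, 1 with array weights (Pcna, -0.76, adjusted p = 0.0312) and 0 to 1 leaving out arrays. Between the wild types it was 0, 2 with array weights (Mcm2 and Kif11) and 0 to 1 leaving out arrays. The median of the replication genes in type II was -0.51 without background correction and -0.98 to -0.53 leaving out arrays. The median of the mitosis genes was -0.65 in type II with median scaling, and -0.43 to -0.22 in type I leaving out arrays. Median scaling moved the median of all features to -0.14 in type I and -0.17 in type II and raised the share of lower calls among all type II calls from 58.3% to 69.6%.

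Changes that did not pass took the opposite sign as follows. In type I, Plk1 was at -0.0389 without background correction, -0.0933 with median scaling, -0.0064 in the authors' values and -0.64 with array weights, and Mcm6 at -0.27 by its second probe. In type II, Ube2c was at -0.0279 with median scaling and at -0.0895 to 0.0991 leaving out arrays. Leaving out arrays gave type I ranges of -0.90 to 1.04 for Plk1, -0.45 to 2.53 for Mcm6, -0.0610 to 0.219 for Ube2c, -0.241 to 0.0537 for Ccne1, -0.34 to 0.00086 for Mcm4, -0.183 to 0.0484 for Pcna, -0.342 to 0.0819 for Top2a and -0.139 to 0.0727 for Kif11. The causes were not tested. Calls were gained in type I without wild type I replicate 3 (Cdc6, Gmnn, Kif23 and Prc1), without type II knockout replicate 2 (Mcm2, Mcm3, Aurka and Birc5) and without its replicate 3 (Mcm2 and Birc5), and in type II without wild type I replicate 3 (Top2a, Cenpa and Mad2l1), wild type I replicate 2 (Mad2l1) and type II knockout replicate 3 (Ccne2 and Mad2l1).

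Over all features, 342 differences between the changes passed, 825 with array weights, 539 with the title number as a block and 170 to 673 leaving out arrays. Between the wild types 171 passed, 109 without the filter, 779 with array weights and 39 to 251 leaving out arrays. In type I 3105 passed, and 4657 with array weights, within 1.5 times. With the replicate block the members called were 5 in type I, 24 in type II and 0 for the difference. Wild type I replicate 2 correlated best with knockout replicate 1 (0.19), which has another replicate number and the same title number. By title number, deviations of the 5 type I pairs that share one correlated at 0.06 to 0.36 and those of the 4 that do not at -0.28 to -0.17, and in type II at 0.03 to 0.14 and -0.16 to 0.07. With the title number as a block the members called were 9 in type I, 24 in type II and 0 for the difference. Dim probes such as Ccna2 and Gmnn sit near background, which limits their changes.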
